A study of Homo sapiens with 60 samples.

Results

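The acute response of H1975 cells to osimertinib was read from 6 of the 60 RNA-seq libraries of the series: 3 of parental H1975 exposed to 500 nM osimertinib for 24 h and 3 of parental H1975 given the vehicle DMSO for 24 h. The libraries were chosen by their labels alone, and all 19712 genes of the count table entered. H1975 is an established human lung adenocarcinoma line with mutant EGFR, and osimertinib is a covalent inhibitor of mutant EGFR. Before either 24 h exposure the cells had been kept without drug for 21 days. The 3 libraries of each group are biological replicates by the labels, and nothing further is said of how the cultures were separated. Each group is a single cell line in culture, so the values describe H1975 and not tumours. The other lines, PC9, HCC827 and HCC2935, had the same pair of groups with 3 libraries each, and are used only to show where H1975 differed.

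Mutant EGFR signals without its ligands along a MAPK and a PI3K route. The RAS and MAPK route switches on early transcription factors such as FOSL1 and the ETS factors ETV4 and ETV5, together with the phosphatases and Sprouty proteins that restrain the same route, so the levels of these genes are widely read as its output. The PI3K and AKT route keeps FOXO transcription factors out of the nucleus, and both routes feed cyclin D1, which licenses the passage from G1 into DNA replication.

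The 6 libraries held 38.7 to 47.5 M estimated counts. Each correlated more closely with every other H1975 library (lowest r = 0.91) than with any library of another line (highest r = 0.89, across genes, which are not independent). The markers of the line were present. EPCAM, KRT7, KRT8, KRT18, KRT19, CDH1 and NKX2-1 were all detected in every library, and NAPSA was low, at 1.54 ± 0.148 CPM (SD, n = 3) under DMSO. CPM is the usual count relative to library size, here with the library scaling of the test. Markers of other cell types are described with the lineage genes. DMSO replicate 2 and osimertinib replicate 1 departed from their group means in the same way: their deviations correlated with r = 0.52 over the tested genes. Both had CDH1, encoding E-cadherin, at 132 CPM, whereas the other DMSO libraries had 365 and 329 CPM and the other osimertinib libraries 342 and 418 CPM. The mesenchymal filament gene VIM went the other way, with 2609 and 2857 CPM in these libraries and 1341 to 1945 CPM in the other 4. Counts of genes are therefore also given without these libraries, called the pair that stood apart. Osimertinib replicates 1 and 3 were the farthest apart of their group. Their squared difference averaged 101 times counting error, against 57.9 for replicates 1 and 2 and 47.6 for 2 and 3. DMSO replicate 1 and osimertinib replicate 3 also deviated together (r = 0.42). Deviations offset each other within a group, so these r values are not independent.

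Acute osimertinib changed a large share of the transcriptome. Of 14738 genes that passed the filter on low counts, 6622 (44.9%) differed between the groups in edgeR's quasi-likelihood test at a Benjamini-Hochberg adjusted p under 0.05, which is the sense of "rose" and "fell" throughout. Of these, 3128 rose (21.2% of those tested) and 3494 fell (23.7%). Which direction had more calls depended on the fit, since 3436 rose and 3221 fell with scaling by library size only, and 3942 rose and 3644 fell in the fit of all 60 libraries. Among the 2486 genes (16.9%) that moved at least 2-fold, 1493 rose and 993 fell. The groups did not overlap for 8255 genes (56% of those tested, 27% with higher and 29% with lower values under drug). In bulk RNA, fewer cells of a kind and less RNA per cell cannot be told apart. The median log2 fold change of all tested genes was 0.03. The shares given here are the background for the counts of the gene lists below. Without the pair of libraries that stood apart, 6816 genes were called.

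**Figure D1:**
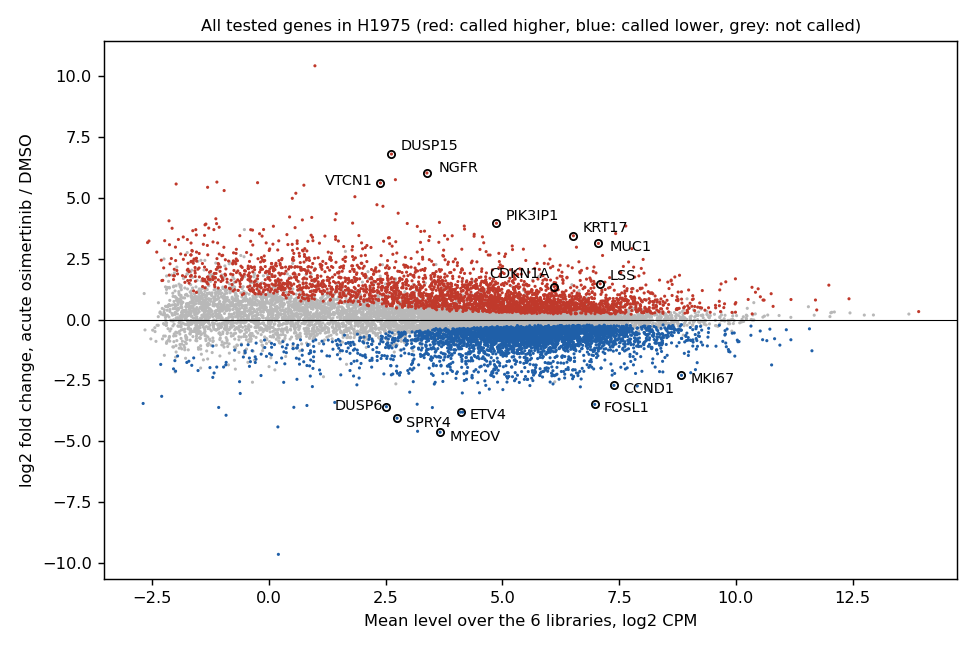
Every tested gene in H1975, with its mean level over the 6 libraries (log2 CPM) on the x axis and its log2 fold change, acute osimertinib over DMSO, on the y axis. Red points are the 3128 genes that rose, blue points the 3494 that fell and grey points those not called. Open circles mark genes named in the text, among them DUSP15 at 6.80 and MYEOV at -4.62. The extreme red and blue points are the histone copies H3C14 and H3C15.

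The steepest rises were of genes nearly silent under DMSO. DUSP15, a dual specificity phosphatase, stood at 0.107, 0.167 and 0.0475 CPM in the DMSO libraries and at 17.8, 13.8 and 5.04 CPM under osimertinib. Its log2 fold change was 6.80 ± 0.64 (SE; adjusted p = 0.000223). It overlaps TTLL9 on the opposite strand, and strand use in the counting is not given in the sources used here. NGFR, the low-affinity neurotrophin receptor, went from 0.279, 0.262 and 0.404 CPM to 28.1, 26.9 and 6.64 CPM. VTCN1, an inhibitory B7-family ligand of T cells, went from 0.208 ± 0.0679 to 10.2 ± 3.71 CPM, with a log2 fold change of 5.61 ± 0.40. ALPG, a germ cell alkaline phosphatase with the close copy ALPP, rose by 5.74 ± 0.52, so its reads may be shared with that copy. The transcription factor gene MAF reached 9.57 ± 2.71 CPM from 0.357 ± 0.265 CPM. RNF225, BPIFB4, PNCK and MEGF10 completed the 10 highest, with levels of 2.74 to 6.95 CPM under drug. The 10 were picked among called genes whose groups did not overlap, so their lack of overlap is a condition and not a result. The required mean of 1 CPM over the 6 libraries was also met mainly through the treated group.

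The steepest falls included a block of MAPK genes. MYEOV, a gene first described in myeloma, went from 22.9, 27.3 and 22.9 CPM to 1.35, 0.608 and 0.998 CPM, a 24.6-fold fall (adjusted p = 5.3e-05). ANGPTL4, a secreted inhibitor of lipoprotein lipase, fell from 17.4 ± 1.18 to 0.72 ± 0.402 CPM. IL1RL1, the receptor of IL-33, fell from 2.18 ± 0.311 to 0.099 ± 0.0459 CPM. SPRY4, ETV4 and DUSP6 belong to the same 10 and are described with the MAPK output, and ACOX2 and GPR3 fell by 3.61 and 3.60 on the log2 scale. TNFRSF6B, a decoy receptor, fell by 3.80 on the log2 scale, but its osimertinib values were 5.14, 1.92 and 0 CPM and it shares sequence with a read-through gene of RTEL1. Both extremes were a pair of near-identical histone H3 genes. H3C14 was at 0 in every DMSO library and 3.95 ± 1.92 CPM under osimertinib, at least 58.2-fold higher against a floor of 3 counts per library. H3C15 was at 0 in every osimertinib library and 2.30 ± 0.505 CPM under DMSO, at least 32.2-fold lower under drug by the same floor. Reads of these copies cannot be assigned with certainty. Their summed level was 2.64, 1.72 and 2.54 CPM under DMSO and 1.95, 4.12 and 5.79 CPM under osimertinib, so the summed groups overlapped.

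MAPK output fell broadly. Of 27 genes, 20 fell and none rose, where 23.7% of all genes fell and 21.2% rose. The list median was -1.88 on the log2 scale, where that of all tested genes was 0.03. DUSP6, the phosphatase that inactivates ERK, was at 12.4, 8.14 and 11.1 CPM under DMSO and 1.02, 1.17 and 0.449 CPM under osimertinib, an 11.9-fold fall (adjusted p = 0.000318). SPRY4, an inhibitor of receptor kinase signalling, fell from 8.04, 15.4 and 14.5 CPM to 1.45, 0.772 and 0.025 CPM. Both belong to the 10 lowest, which were picked among genes whose groups did not overlap. The ETS factor gene ETV4 fell from 35.4, 30.3 and 30.5 CPM to 2.76, 2.97 and 1.15 CPM, and ETV5 fell by 3.01 ± 0.48 on the log2 scale. FOSL1, encoding the AP-1 subunit FRA1, went from 205, 280 and 209 CPM to 34.1, 18.3 and 9.71 CPM. HMGA2, a chromatin protein, fell from 85.1 ± 3.49 to 18.5 ± 0.414 CPM. DUSP4 and DUSP5 fell by 2.03 and 1.90 on the log2 scale.

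The 7 members that were not called included 3 early response genes with wide spreads. EGR1 was at 158, 29.2 and 170 CPM under DMSO and 2.34, 46.1 and 12.3 CPM under osimertinib (adjusted p = 0.0751), so the groups overlapped. It passed without DMSO replicate 2 (adjusted p = 0.0429), without osimertinib replicate 2 (0.0284) and without the pair of libraries that stood apart (0.011). Without that pair 22 members of the list were called. FOS was at 45.9, 3.51 and 33.6 CPM and then 1.09, 19.8 and 12.8 CPM, again with overlap. MYC was at 452, 678 and 585 CPM under DMSO and 426, 475 and 200 CPM under osimertinib, a log2 fold change of -0.64 ± 0.31 that did not pass (adjusted p = 0.129). SPRY2 was level, with a log2 fold change of 0.01 ± 0.16, IER3 had -0.30 ± 0.18, and IER2 and EPHA4 were the remaining 2 not called.

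**Figure D2:**
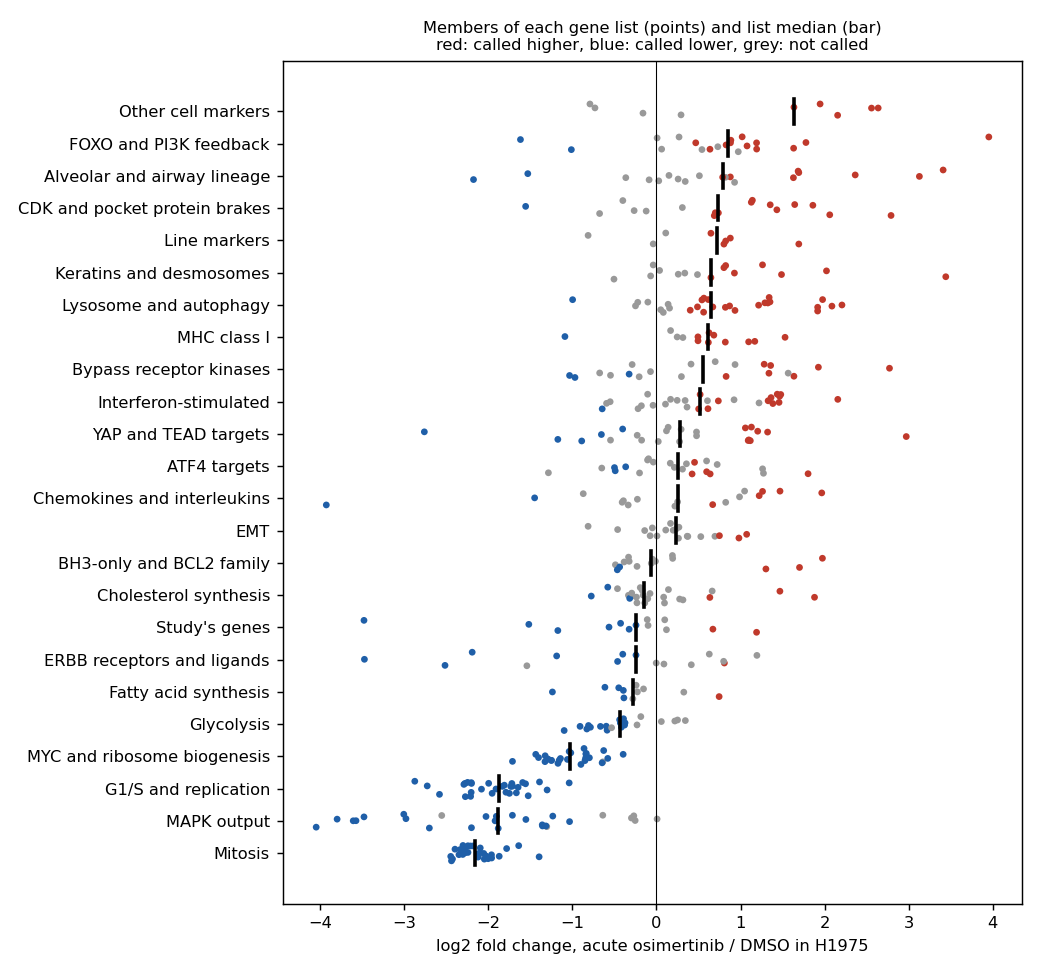
Log2 fold change, acute osimertinib over DMSO, of every tested member of the gene lists, ordered by list median (black bar). Red points rose, blue points fell and grey points were not called. The mitosis, MAPK output and replication lists have medians of -2.15, -1.88 and -1.87, and the list of other cell markers has the highest median, 1.64.

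EGFR itself moved little, and the steepest falls in its family were in its ligands. EGFR was at 416, 437 and 452 CPM under DMSO and 361, 364 and 377 CPM under osimertinib, a 1.18-fold fall (adjusted p = 0.0344). The groups did not overlap, yet the call was lost without any of DMSO replicates 1, 2 and 3 or osimertinib replicates 1 and 2 (adjusted p = 0.0504 to 0.123), and in the fit of all 60 libraries (0.0717). ERBB2 rose from 144 ± 26.5 to 252 ± 44.0 CPM. ERBB3, the kinase-poor partner of both, was at 82.4, 24.5 and 75.3 CPM and then 55.6, 155 and 207 CPM, and was not called (adjusted p = 0.117). It passed without osimertinib replicate 1 (0.0306), without the pair that stood apart (0.00149) and in the fit of all 60 libraries (0.00163). The ligand AREG fell from 23.5, 10.2 and 16.0 CPM to 1.09, 1.59 and 1.80 CPM, an 11.1-fold fall (adjusted p = 0.000315). EREG fell 5.72-fold and TGFA 4.57-fold. HBEGF, a ligand that is itself an early response gene, was at 9.52, 19.7 and 11.8 CPM and then 30.4, 29.9 and 11.0 CPM, and was not called (adjusted p = 0.156, but 0.0233 without osimertinib replicate 3). NRG1, the ligand of ERBB3, fell 2.28-fold, a call lost without osimertinib replicate 2 or 3. The feedback inhibitor ERRFI1 fell from 203 ± 3.02 to 147 ± 22.9 CPM, a call lost in the fit of all 60 libraries (adjusted p = 0.0896). In all, 7 of 15 tested members of the family list fell and 1 rose, where 23.7% of all genes fell and 21.2% rose. Without osimertinib replicate 2 only 5 members were called.

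The cell cycle genes fell without exception within the lists used. All 30 genes of the G1/S and replication list and all 30 of the mitosis list fell at least 2-fold, and none of their treated libraries overlapped the controls. Of all tested genes, 16.9% moved at least 2-fold in either direction and 29% had lower values under drug without overlap. In the lists together the log2 fold changes ran from -2.88 for MCM10, a replication initiation factor, to -1.04 for CCNE1, which encodes cyclin E1. Upstream of both, CCND1 fell from 216, 416 and 240 CPM to 56.7, 46.0 and 31.3 CPM, a 6.51-fold fall (adjusted p = 0.000492). E2F1, the transcription factor of the G1/S step, fell from 83.7, 87.5 and 80.1 CPM to 22.2, 21.1 and 16.0 CPM. E2F2 fell 4.61-fold, CCNE2 4.60-fold and CDC6, which loads the replicative helicase, 4.84-fold. RRM2, the regulated subunit of ribonucleotide reductase, fell from 412 ± 19.3 to 62.2 ± 2.74 CPM. Among mitotic genes, CDK1 was at 179, 133 and 146 CPM under DMSO and 25.2, 25 and 35.2 CPM under osimertinib, and its partner CCNB1 fell 4.63-fold. MKI67, the proliferation marker, was at 834, 698 and 743 CPM and then 123, 128 and 215 CPM. TOP2A, the topoisomerase of dividing cells, fell 4.54-fold, and the kinetochore motor CENPE fell 5.45-fold, the most in the mitosis list. The least in that list was FOXM1, a factor that drives mitotic genes, at 2.63-fold.

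The promoters of the 2 lists carried different short elements. RefSeq promoters (build GRCh38.p14) were matched for 24 mitosis genes, 25 replication genes and 11536 of all tested genes, 1 start per gene, and the 250 bases before the start were searched on both strands. The letters CCAAT, the box bound by NF-Y, were in 21 of 24 mitosis promoters (87.5%), 14 of 25 replication promoters (56%) and 34.7% of all. The letters TTTGAA, the core of the element named CHR, were in 15 mitosis promoters (62.5%), 1 replication promoter (4.0%) and 8.66% of all. The E2F letters GGCGGGAA or TTTGGCGC were in 1 mitosis promoter (4.17%), 11 replication promoters (44%) and 5.15% of all. In the MAPK output list, matched for 17 genes, the AP-1 letters TGACTCA were in 2 and the ETS letters CCGGAAGT in none, against 2.81% and 6.6% of all. A match is a description of the letters and not of a bound site. The 150 bases before the start are shown for 3 mitosis and 2 replication genes, 5′ to 3′ on the strand of the gene. They are the first of each list with both mitotic elements, or with E2F letters, within these 150 bases. Genes on 1 chromosome were passed over in this choice. Capitals mark CCAAT or its reverse ATTGG and TTTGAA or its reverse TTCAAA in MKI67 (chr10:128126424-128126573, minus strand), CCNB2 (chr15:59104996-59105145, plus strand) and PLK1 (chr16:23678739-23678888, plus strand). They mark the E2F letters in E2F1 (chr20:33686386-33686535, minus strand) and E2F2 (chr1:23531234-23531383, minus strand). In MKI67 a TTTGAA and an ATTGG overlap.
MKI67: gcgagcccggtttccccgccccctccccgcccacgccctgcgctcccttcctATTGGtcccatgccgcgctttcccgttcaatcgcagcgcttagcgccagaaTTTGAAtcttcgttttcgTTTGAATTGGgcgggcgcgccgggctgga
CCNB2: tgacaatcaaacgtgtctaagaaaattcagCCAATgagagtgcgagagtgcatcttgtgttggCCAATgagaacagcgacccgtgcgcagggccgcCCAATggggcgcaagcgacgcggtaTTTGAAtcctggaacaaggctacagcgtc
PLK1: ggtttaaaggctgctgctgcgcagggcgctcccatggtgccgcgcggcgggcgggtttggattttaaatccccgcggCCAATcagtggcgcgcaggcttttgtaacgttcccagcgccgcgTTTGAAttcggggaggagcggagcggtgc
E2F1: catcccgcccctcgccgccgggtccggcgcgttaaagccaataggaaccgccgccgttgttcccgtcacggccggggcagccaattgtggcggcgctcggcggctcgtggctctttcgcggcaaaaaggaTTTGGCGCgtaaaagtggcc
E2F2: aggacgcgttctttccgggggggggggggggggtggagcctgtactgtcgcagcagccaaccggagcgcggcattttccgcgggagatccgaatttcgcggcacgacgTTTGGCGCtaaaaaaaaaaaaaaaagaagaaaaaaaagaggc
With these promoters the MKI67, CCNB2 and PLK1 transcripts fell by 2.29, 1.87 and 2.1 on the log2 scale, and E2F1 and E2F2 by 2.08 and 2.20.

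Genes that hold the cell cycle back rose. Of 17 inhibitors of cyclin-dependent kinases, pocket proteins and antiproliferative factors, 11 rose and 1 fell. Of all genes, 21.2% rose and 23.7% fell. CDKN1A, encoding p21, was at 46.8, 27.6 and 41.9 CPM under DMSO and 66.6, 107 and 124 CPM under osimertinib, a 2.55-fold rise (adjusted p = 0.00534). CDKN1B, encoding p27, rose from 36.3 ± 2.48 to 58.9 ± 4.33 CPM. CDKN2B, encoding p15, rose 2.70-fold, and CDKN1C, encoding p57, was at 8.18 ± 3.23 and 7.51 ± 3.34 CPM and was not called. The largest rise of the list was in YPEL3, a growth suppressor, from 6.34 ± 0.90 to 43.9 ± 9.56 CPM. CCNG2, an atypical cyclin of arrested cells, went from 25, 14 and 25.1 CPM to 82.9, 90.3 and 94.7 CPM. The gene that fell was RBL1, encoding the pocket protein p107, from 65.9 ± 0.499 to 22.4 ± 5.14 CPM.

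**Figure D3:**
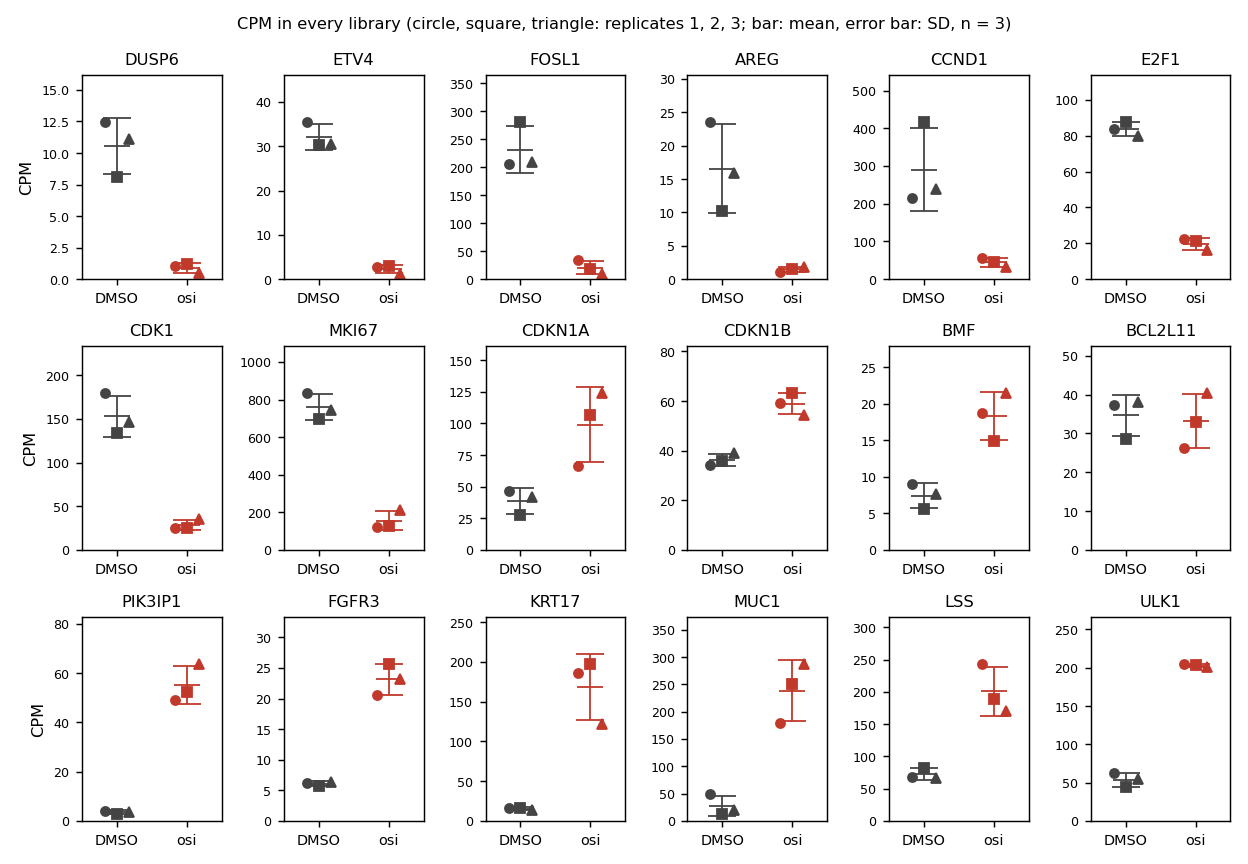
CPM of 18 genes in every library, DMSO in grey and osimertinib in red, with circles, squares and triangles for replicates 1, 2 and 3, a bar at the mean and error bars of 1 SD (n = 3). Each axis starts at 0 and has its own range. BCL2L11 is the only panel in which the groups overlap. ETV4 drops from 32.1 to 2.29 CPM and PIK3IP1 climbs from 3.54 to 55.0 CPM.

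Biosynthetic genes fell, by less than the cell cycle genes. Of 26 genes of MYC and ribosome biogenesis, 25 fell, where 23.7% of all genes fell. The median log2 fold change of the list was -1.03, and MYC was the exception. PA2G4, a nucleolar growth regulator, fell most, from 592, 437 and 558 CPM to 154, 162 and 168 CPM. NCL, encoding nucleolin, fell from 1342 ± 42.7 to 535 ± 54.6 CPM, NOP56 of the box C/D particles fell 2.21-fold and UBTF, a factor of RNA polymerase I, fell 1.32-fold. Of 21 glycolysis genes, 14 fell and none rose, with a median of -0.43, where 23.7% of all genes fell and 21.2% rose. Without DMSO replicate 1, 9 of these genes were called, and 5546 of all genes. LDHA, lactate dehydrogenase A, was at 2338, 2175 and 2399 CPM and then 1352, 1361 and 1297 CPM. PGAM1 fell 2.14-fold and the hexokinase HK2 1.51-fold, whereas the glucose transporter SLC2A1 was at 254 ± 43.1 and 302 ± 19.4 CPM and was not called.

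Lipid genes gave calls in both directions. Of 24 tested genes of cholesterol synthesis, 3 rose and 3 fell in the main test, a share of calls below the 44.9% of all genes. LSS, lanosterol synthase, rose from 68.2, 82.7 and 66.8 CPM to 243, 189 and 170 CPM, a 2.77-fold rise (adjusted p = 0.000351), while EBP, a sterol isomerase that acts after it, fell 1.71-fold. TM7SF2, a sterol reductase, rose 3.68-fold from a low level. With the pair of libraries that stood apart left out, 12 genes of this list were called, 8 of them lower, and without DMSO replicate 2 alone 10 were called. Of 11 tested fatty acid genes, 5 fell and 1 rose, a share of calls not below that of all genes. Without DMSO replicate 1 or 3, 3 were called. ELOVL6, an elongase, fell 2.36-fold, and FASN, fatty acid synthase, fell from 678 ± 116 to 443 ± 102 CPM (adjusted p = 0.0365), a call that was lost without any of DMSO replicates 1 and 3 or osimertinib replicates 1 and 2 (adjusted p = 0.0575 to 0.118).

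Of 15 tested genes of the BCL2 family, 3 rose and 2 fell, where 44.9% of all genes were called. The BH3-only genes BMF, BBC3 and HRK rose, whose products sensitise mitochondria to apoptosis: BMF from 9.02, 5.63 and 7.65 CPM to 18.7, 14.9 and 21.4 CPM, BBC3 3.25-fold and HRK 3.93-fold. BCL2L11, encoding BIM, was at 37.3, 28.6 and 38.1 CPM and then 26.3, 32.9 and 40.4 CPM, a log2 fold change of -0.06 ± 0.18 (adjusted p = 0.804). The effectors BAX and BAK1 fell 1.35-fold and 1.38-fold. MCL1, an antiapoptotic member, was at 362 ± 28.0 and 413 ± 24.2 CPM and was not called.

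FOXO targets and feedback genes of PI3K mostly rose, 12 of 20, and 2 fell, where 21.2% of all genes rose and 23.7% fell. PIK3IP1, an inhibitor of PI3K, went from 4.18, 2.84 and 3.61 CPM to 49.0, 52.3 and 63.7 CPM, a 15.5-fold rise (adjusted p = 2.92e-05). TXNIP, a brake on glucose uptake, rose from 379 ± 49.2 to 866 ± 41.7 CPM, and FOXO4 and FOXO3 rose 3.43-fold and 1.38-fold. FOXO1 was at 8.16 ± 1.12 and 11.9 ± 2.80 CPM and did not pass (adjusted p = 0.0712). It passed with DESeq2 (0.0398), without osimertinib replicate 1 (0.0323) and without the pair that stood apart (0.0437). The adaptor genes of the insulin receptor parted: IRS1 fell 2.02-fold (adjusted p = 0.00498) and IRS2 rose 1.85-fold (0.0494), the latter with overlapping groups and a call lost without any of DMSO replicates 1 and 3 or osimertinib replicates 1 and 2. The pseudokinase gene TRIB2 fell from 9.21 ± 0.259 to 2.99 ± 1.06 CPM.

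Among receptor kinases other than EGFR, 7 of 20 tested rose and 3 fell, a share near the 44.9% of all genes. FGFR3 rose from 6.21, 5.68 and 6.36 CPM to 20.6, 25.6 and 23.2 CPM, a 3.80-fold rise (adjusted p = 8.41e-05). DDR1, a collagen receptor, rose from 69.4 ± 17.8 to 169 ± 26.4 CPM, and PDGFRB 3.11-fold. RET had the largest rise of the list from a very low level, 0.0858 ± 0.0704 to 0.596 ± 0.0416 CPM. MET, known from amplification in resistant tumours, was at 602, 507 and 629 CPM and then 428, 511 and 447 CPM, with a log2 fold change of -0.33 ± 0.11 at the threshold (adjusted p = 0.0496) and overlapping groups. The call was lost without any of DMSO replicates 1 and 3 or osimertinib replicates 1 and 3 (adjusted p = 0.11 to 0.165). AXL was at 98.0, 211 and 138 CPM and then 133, 112 and 60.6 CPM and was not called. Of its relatives, TYRO3 fell 1.96-fold and MERTK, at 8.01 ± 3.22 and 13.0 ± 5.23 CPM, was not called, though it passed without the pair that stood apart (adjusted p = 0.0365) and in the fit of all 60 libraries (0.0352).

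Lysosome and autophagy genes rose, 20 of 28, and 1 fell, where 21.2% of all genes rose and 23.7% fell. ULK1, the kinase that starts autophagy, was at 62.5, 43.8 and 54.9 CPM under DMSO and 205, 203 and 200 CPM under osimertinib, a 3.78-fold rise (adjusted p = 7.24e-05). GABARAPL1, which coats autophagosomes, rose 4.25-fold. CTSD, encoding cathepsin D, went from 743 ± 29.2 to 1861 ± 222 CPM and CTSH from 30.2 ± 8.51 to 140 ± 74.0 CPM. The gene that fell was GLA, alpha-galactosidase A, 2.00-fold.

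Of 27 interferon-stimulated genes, 12 rose and 1 fell, where 21.2% of all genes rose and 23.7% fell. The groups did not overlap for 13 of the 27, where this held for 56% of all genes. The rises were led by genes of the transcription complex itself. STAT2 went from 53.0, 37.4 and 46.4 CPM to 154, 193 and 264 CPM, a 4.46-fold rise (adjusted p = 0.000291), and IRF9 from 14.1 ± 5.18 to 39.4 ± 8.0 CPM. IFIT2 was at 75.3, 29.2 and 51.7 CPM and then 43.6, 83.1 and 74.5 CPM, with the lowest values in the pair of libraries that stood apart. OAS3, an antiviral synthetase, fell 1.56-fold, a call lost without any of DMSO replicates 1 and 3 or osimertinib replicate 3. Without the pair that stood apart 15 members rose and 2 fell, and 7 were called without DMSO replicate 3 or osimertinib replicate 2 and 8 without osimertinib replicate 3. Of 13 genes of MHC class I and its peptide loading, 9 rose and 1 fell, against 21.2% and 23.7% of all genes. HLA-E rose from 121 ± 5.56 to 273 ± 21.7 CPM, HLA-F 2.89-fold and B2M, the shared light chain, 1.41-fold. TAP2, a subunit of the peptide transporter, fell from 96.4 ± 7.11 to 45.3 ± 9.91 CPM. Class I genes are near copies, so reads may be divided among them. Of 17 tested chemokines and cytokines, 5 rose and 2 fell, a share of calls near the 44.9% of all genes. Without DMSO replicate 1 only 3 were called, and 4 without DMSO replicate 3 or osimertinib replicate 1. CCL2, which attracts monocytes, rose from 0.932 ± 0.342 to 3.66 ± 0.948 CPM, and CSF2, encoding GM-CSF, fell from 0.993 ± 0.246 to 0.0639 ± 0.0394 CPM.

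Of 15 tested keratin and desmosome genes, 8 rose, none fell and 7 were not called, where 21.2% of all genes rose and 23.7% fell. KRT17, a keratin of basal and wounded epithelium, went from 16.7, 16.1 and 13.6 CPM to 186, 197 and 121 CPM, a 10.9-fold rise (adjusted p = 4.74e-05). KRT7 rose from 1677 ± 267 to 2967 ± 532 CPM and KRT8 from 1117 ± 89.9 to 1949 ± 184 CPM, while KRT18, the partner of KRT8, was at 861 ± 66.3 and 838 ± 86.3 CPM. KRT8 and KRT18 overlap on opposite strands, and the keratins have close copies. Of 19 tested genes of alveolar and airway lineage, 8 rose and 2 fell against the same shares, and 6 were called without DMSO replicate 3. MUC1, a membrane mucin, went from 48.9, 13.1 and 19.9 CPM to 179, 251 and 287 CPM, MUC20 rose 10.6-fold and MUC16 5.15-fold. NKX2-1, the lung lineage factor, rose 1.84-fold (adjusted p = 0.0254), a call lost without any of DMSO replicates 2 and 3 or osimertinib replicates 2 and 3, and its target NAPSA rose 3.23-fold. FOXA2, a factor of airway epithelium, fell from 11.5 ± 3.37 to 2.55 ± 1.37 CPM.

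Genes of the epithelial to mesenchymal programme spread widely within the groups. Of 19 tested, 3 rose and none fell, where 44.9% of all genes were called, and 5 were called without DMSO replicate 1. SNAI2, encoding the repressor SLUG, rose from 20.4, 25.6 and 25 CPM to 52.9, 53.3 and 43.1 CPM. CDH1 and VIM had log2 fold changes of 0.11 ± 0.48 and 0.17 ± 0.32, and ESRP1, an epithelial splicing factor, was at 106 ± 61.0 and 100 ± 57.6 CPM, with its lowest values, 38 and 36.6 CPM, in DMSO replicate 2 and osimertinib replicate 1. EPCAM, an epithelial adhesion molecule, was at 266, 117 and 240 CPM and then 66.2, 130 and 158 CPM and was not called (adjusted p = 0.119). It passed without DMSO replicate 2 (0.0371), without that pair (0.00308), with DESeq2 (0.0492) and in the fit of all 60 libraries (0.00449). Among 12 markers of other cell types, 9 were tested, 5 rose and none fell, where 21.2% of all genes rose and 23.7% fell. Those that rose were COL1A1, ACTA2, PDGFRB, CDH5 and VWF, known from fibroblasts, smooth muscle, pericytes and endothelium. CDH5, encoding VE-cadherin, was at 1.14, 0.835 and 1.5 CPM and then 4.62, 8.47 and 8.54 CPM. ACTA2, smooth muscle actin, was at 1.78, 2.89 and 1.92 CPM and then 12.7, 16.0 and 10.1 CPM, but it overlaps FAS and STAMBPL1 on the opposite strand. COL1A1 rose 3.85-fold. The summed level of the 12 markers was 167 to 234 CPM under DMSO and 372 to 592 CPM under osimertinib. CD3E was at 0 in every library, COL3A1 and DCN did not exceed 0.285 CPM in any, and PTPRC and PECAM1 were not called. The part of other cells in these values was not tested.

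**Figure D4:**
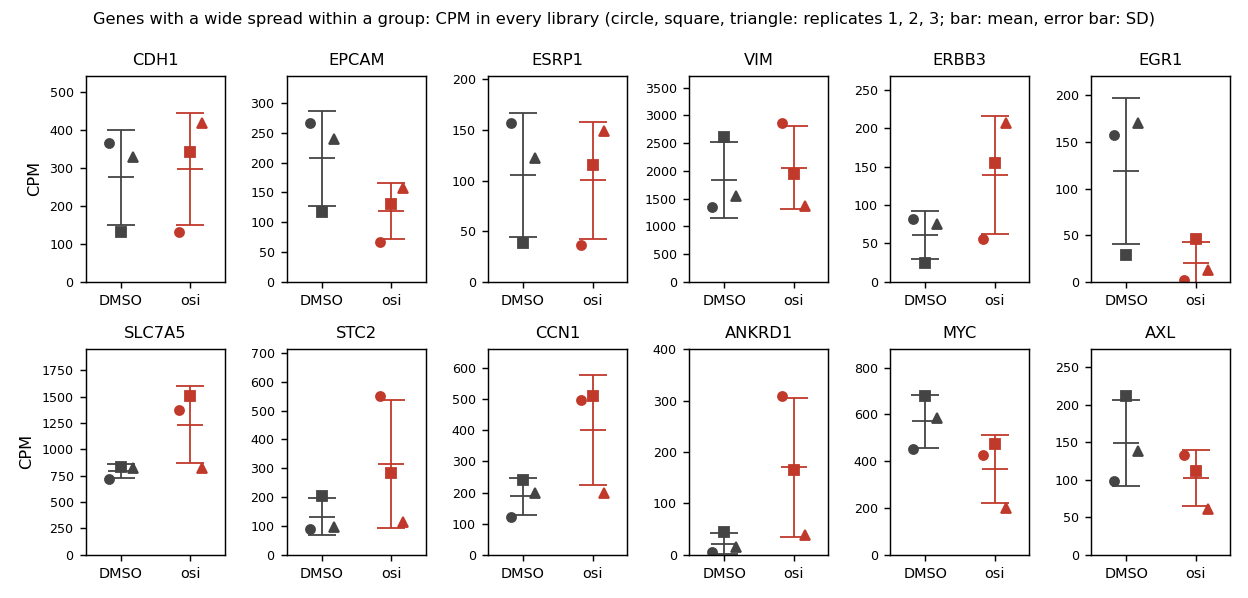
CPM of 12 genes with a wide spread within a group, drawn as in the plot of 18 genes. CDH1 and ESRP1 are low and VIM is high in DMSO replicate 2 (grey square) and osimertinib replicate 1 (red circle). SLC7A5, STC2, CCN1 and ANKRD1 are lowest among the treated libraries in osimertinib replicate 3 (red triangle).

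The targets of ATF4, the factor of the amino acid and unfolded protein responses, were divided, with 5 of 22 rising and 3 falling. The share called was below the 44.9% of all genes. ATF4 itself was at 208, 202 and 219 CPM and then 304, 329 and 229 CPM (adjusted p = 0.0297). DDIT3, encoding CHOP, rose from 17.8 ± 3.23 to 62.1 ± 15.6 CPM. SLC7A5, a transporter of large neutral amino acids, was at 715, 838 and 825 CPM and then 1379, 1504 and 820 CPM (adjusted p = 0.0426). STC2, a secreted glycoprotein, was at 90.5, 205 and 98.0 CPM and then 550, 283 and 112 CPM and was not called (adjusted p = 0.101), but passed without osimertinib replicate 3 (0.0211) and in the fit of all 60 libraries (0.00131). Without the pair that stood apart 1 member rose and 4 fell, and ATF4 and SLC7A5 were no longer called (adjusted p = 0.0999 and 0.11). The call on ATF4 and that on SLC7A5 were also lost without any 1 library other than osimertinib replicate 3, and the list had 1 called member without DMSO replicate 3, 2 without osimertinib replicate 2, 4 without DMSO replicate 1, DMSO replicate 2 or osimertinib replicate 1, and 13 in the fit of all 60 libraries.

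Of 23 genes of YAP and TEAD, 8 rose and 5 fell, where 44.9% of all genes were called. The groups did not overlap for 11 of them, where this held for 56% of all genes. ANKRD1, a transcriptional cofactor and usual readout of YAP, was at 5.55, 44.9 and 14.8 CPM and then 308, 164 and 38.6 CPM (adjusted p = 0.0314), so osimertinib replicate 3 overlapped the controls. CCN1, a matricellular protein, was at 122, 241 and 200 CPM and then 497, 509 and 198 CPM (adjusted p = 0.0485). Both calls were lost without any of DMSO replicates 1 and 3 or osimertinib replicates 1 and 2, and that on CCN1 also without the pair that stood apart (0.0756). AMOTL2, a scaffold of the pathway, rose 2.08-fold with groups that did not overlap, and CCN2 was at 44.9 ± 17.1 and 62.5 ± 25.5 CPM and was not called. NT5E, the ectonucleotidase CD73, fell from 237, 115 and 181 CPM to 19.3, 28.4 and 30.8 CPM, a 6.78-fold fall (adjusted p = 0.000347).

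Of 13 genes that the study discusses around drug resistance, 7 fell and 2 rose, where 23.7% of all genes fell and 21.2% rose. The calls on EGFR and MET among them were lost without several single libraries, as given above. The list was picked from that discussion and not from the study's recommended genes alone. It includes EGFR, the target of the drug, and YAP1, which the study names as a member of the Hippo pathway. Its ranking drew on acute osimertinib expression data of PC9 and HCC827, so the list may not be independent of these experiments. Beside FOSL1, EGFR and MET, the falls were in EZH2, a histone methyltransferase (87.1 ± 10.8 to 30.4 ± 2.34 CPM), WWTR1, encoding TAZ (174 ± 45.6 to 77.3 ± 3.80 CPM), KCTD5, an adaptor of cullin ligases (81.1 ± 1.54 to 54.9 ± 3.57 CPM), and CAND1, a regulator of cullins (152 ± 14.8 to 113 ± 7.36 CPM). The repressor BCL6 rose 2.28-fold and the kinase SRC 1.59-fold. NF1, KEAP1 and YAP1 were among the 4 not called, with log2 fold changes of 0.10 ± 0.13, -0.11 ± 0.17 and 0.12 ± 0.09, and YAP1 passed in the fit of all 60 libraries (adjusted p = 0.0471).

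The acute effect in H1975 was then tested against the mean acute effect in PC9, HCC827 and HCC2935. Of 15970 genes tested, the effect differed for 1633 (10.2%), being higher in H1975 for 908 (5.69%) and lower for 725 (4.54%). The balance turned under 4 alternatives, with 827 higher and 905 lower by library size only, 723 and 854 with no filter, 775 and 971 with at least 10 counts in every library, and 698 and 759 with limma. Read from each line's own test, 2449 of the 5923 genes called in H1975 and tested in every line were called in the same direction in all 4 lines. The MAPK output list differed from the mean for 2 of its 27 members, for 7 against PC9 alone, 0 against HCC827 alone and 6 against HCC2935 alone. Without 1 library that count ran from 0, without DMSO replicate 1 or osimertinib replicate 1, over 1, without DMSO replicate 2 or 3 or osimertinib replicate 2, to 5, without osimertinib replicate 3. The ribosome biogenesis list differed from the mean for 0 of 26 members, and for 7, 2 and 3 against PC9, HCC827 and HCC2935 alone. The median log2 fold change of MAPK output was -1.88 in H1975, -2.24 in PC9, -1.36 in HCC827 and -2.71 in HCC2935. The mean over the other lines hides wide differences between them, so each difference was also tested against each line alone. Of 46 genes given values here whose effect differed from the mean, 6 differed the same way from each line: LSS, CDH5 and ACTA2, which were higher in H1975, and TGFA, CDKN1C and RGCC, which were lower.

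CDKN1C, which encodes p57, had log2 fold changes of 3.51 in PC9, 3.28 in HCC827 and 1.59 in HCC2935, all called, and -0.12 in H1975. LSS had 1.47 in H1975 and 0.00, -0.33 and -0.03 in PC9, HCC827 and HCC2935. TGFA fell by 2.19 on the log2 scale in H1975 and had -0.20, -0.82 and -1.16 in the others. RGCC, a regulator of the cell cycle and complement response, had log2 fold changes of 1.78, 2.92 and 2.26 in the others and -2.07 in H1975. In H1975 it was at 1.76 ± 1.32 and 0.425 ± 0.487 CPM with overlapping groups, and was not called (adjusted p = 0.121). ACTA2 had 2.56 against 0.18, 0.67 and 0.49. CDH5 had 2.64 in H1975, -0.81 in PC9 and 0.52 in HCC2935, and was not tested alone in HCC827.

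Other members differed from the mean and not from every line. CDKN1A rose in H1975 (1.35), fell in PC9 (-1.04) and was not called in HCC827 (0.33) or HCC2935 (-0.25). BMF had 1.3 in H1975 and 4.41, 2.43 and 2.54 in PC9, HCC827 and HCC2935. Its difference was called against PC9 alone, and not against HCC827 alone or HCC2935 alone. BCL2L11 was level in H1975 while it had 0.94, 0.41 and 1.08 elsewhere, all called. Its difference from HCC827 alone was not called. Of the 22 tested ATF4 targets, 13 had a higher effect in H1975 and none a lower (background 5.69% and 4.54%), 9 differing without the pair that stood apart and 4 against HCC2935 alone. SLC7A5 had 0.64 in H1975 and -1.62, -0.48 and 0.01 in the others. Of 21 glycolysis genes, 10 had a higher effect in H1975 and 1 a lower, but only 5 differed without osimertinib replicate 2, 6 without DMSO replicate 2, 7 without the pair that stood apart and 6 with the replicate block. Against PC9 alone 4 were higher and 2 lower. Of the 30 mitosis genes, 7 had a lower effect in H1975, 17 against PC9 alone, none against HCC827 alone, none in the fit of all 60 libraries and 2 without the pair that stood apart. Without 1 library the count was 2 (osimertinib replicate 1 or 2), 3 (DMSO replicate 1) or 15 (osimertinib replicate 3) where it moved. Of 27 interferon genes, 8 had a lower effect, led by IFI44 with -0.55 in H1975 and 3.49 in PC9, and against HCC827 alone none differed while 3 were higher against HCC2935 alone. The lower effects numbered 4 without DMSO replicate 1, without osimertinib replicate 1 and with the replicate block, and 5 without DMSO replicate 3. Keratins depended on the line of comparison, since KRT8 had 0.80 in H1975, 1.10 in PC9, -0.96 in HCC827 and -1.2 in HCC2935. HBEGF had 0.80 in H1975, -4.42 in PC9, 2.26 in HCC827 and -1.91 in HCC2935, and ANKRD1 2.97, -4.72, 2.91 and -0.95 in the same order.

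**Figure D5:**
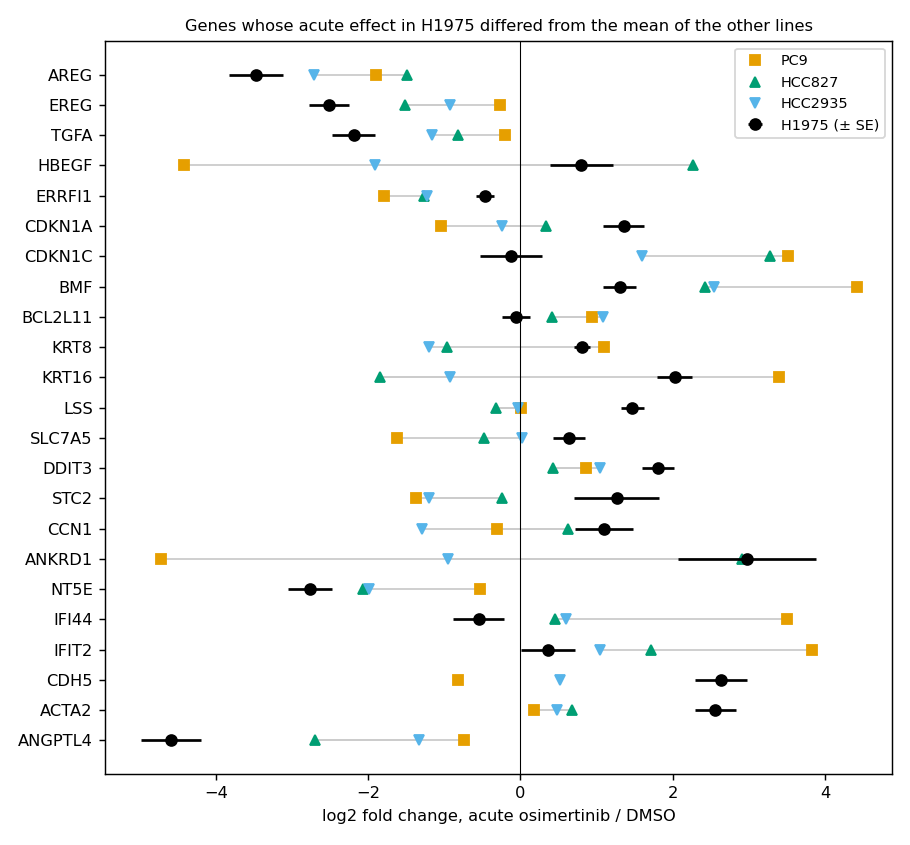
Log2 fold change, acute osimertinib over DMSO, of 23 genes whose effect in H1975 differed from the mean of the other lines. Black circles are H1975 with bars of 1 SE, and squares, upward and downward triangles are PC9, HCC827 and HCC2935, absent where a gene was not tested in that line. CDKN1C lies at -0.12 in H1975 and at 1.59 to 3.51 in the others, and HBEGF and ANKRD1 in H1975 lie within the range of the other lines or close to it.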

How the data were processed

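RNA was sequenced as Illumina mRNA TruSeq libraries on a HiSeq4000. The authors deposited estimated counts per gene and log2 TPM (log2 of TPM plus 0.01), both named by gene symbol. The submitters' processing notes name HISAT2 2.1.0, Salmon 0.8.2 and hg38 without saying which step each served, and the annotation and strand setting are not given in the sources used here. Estimated counts divide reads between close copies and overlapping genes by a model, which bears on paralogs.

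After rounding to whole numbers, the counts were tested with edgeR 4.0.16 (R 4.3.3; TMM scaling, filterByExpr, quasi-likelihood F test, Benjamini-Hochberg over all tested genes), 3 libraries against 3. SE is the size of the log2 fold change over the square root of F. The test across lines fitted 24 libraries with 8 group means. Genes were called at an adjusted p under 0.05. The test was tried on simulated counts in which few genes changed. In a simulation of the H1975 comparison (14605 genes, 10 false calls), 10 of 83 genes changed 1.5-fold were recovered. Of those changed 2-fold 34 of 58 (58.6%) were recovered, and 50 of 59 changed 4-fold. In a simulation of the comparison across lines (15819 genes, 2 false calls), 30.9% changed 1.5-fold and 46.9% changed 2-fold were recovered. In the data 44.9% of genes were called in H1975. The adjusted threshold depends on that share, so these recoveries do not carry over to the data.

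The comparison, the 24 gene lists and the tests were chosen with earlier results of these data known. The genes named were the 10 highest and 10 lowest called log2 fold changes with non-overlapping groups and a mean of at least 1 CPM; of each list the first 4 members and the extremes; all of the study's genes; and the 5 highest and 5 lowest differences across lines with a mean of at least 1 CPM. Not all have values here, some genes of the lists are not reported here by name, and other list members were added after their values were seen. Alternatives were DESeq2 1.42.0, limma 3.58.1 on log2 TPM, other scalings, filters and thresholds, the replicate number as a block, all 60 libraries in 1 fit, each other line alone and the omission of each library. The omission of 2 libraries together was chosen after seeing the data. P-values measure the spread between these libraries only. Total counts were 38.7 to 47.5 M a library, and the squared difference between replicates of a group was 20.1 to 101 times that of counting error on average over genes, with a median of 4.35 to 15 times.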

Additional observations from a re-analysis of the deposited data

Results flagged for a closer look

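Each of the following genes has an acute effect in H1975 that differed from the mean effect in PC9, HCC827 and HCC2935 at an adjusted p under 0.05 in edgeR. Values are log2 fold changes in H1975 minus that mean. With groups of 3 libraries, single libraries were not tested as outliers.

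Higher in H1975 were ANKRD1 (3.91), CDH5 (2.57), STC2 (2.22), HBEGF (2.18), ACTA2 (2.13), KRT16 (1.84), CDKN1A (1.70), LSS (1.61), VTCN1 (1.57), CCN1 (1.45), CDC6 (1.42), SLC7A5 (1.36), COL1A1 (1.20), TRIB3 (1.19), KRT8 (1.18), IER3 (1.07), DDIT3 (1.05), IRS2 (1.05), ERRFI1 (0.99), SPRY2 (0.95), KRT7 (0.84), CCNE1 (0.84), MET (0.79), KRT18 (0.72), SLC2A1 (0.71), HK2 (0.66), CTSD (0.65), KRT19 (0.57), DDR1 (0.56), LDHA (0.47), ATF4 (0.40) and EGFR (0.37). CDC6, HK2, LDHA, ERRFI1, CCNE1, MET and EGFR fell in H1975, so that a positive value there is a smaller fall than the mean of the other lines.

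Lower in H1975 were RGCC (-4.36), RARRES1 (-3.81), ANGPTL4 (-2.97), CDKN1C (-2.90), IFI44 (-2.02), BMF (-1.81), IFIT2 (-1.81), EREG (-1.58), TGFA (-1.44), AREG (-1.42), NT5E (-1.21), BCL2L11 (-0.85), CCNB2 (-0.58) and MCM7 (-0.41). RARRES1 was at 1.3 ± 0.49 and 0.835 ± 0.0755 CPM in H1975 and was tested alone only in PC9 of the other lines, where it rose by 4.56.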

How the results depend on the processing

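Of the 6622 genes called, none changed sign under any alternative, and 4072 (adjusted p under 0.01) to 6592 (RLE scaling) stayed called in the same direction. The number of calls was 4861 to 6236 without 1 library, the lowest without DMSO replicate 3, 6816 without the 2 libraries that stood apart and 7333 with DESeq2. The number called at least 2-fold was 2115 to 2556 without 1 library. The test across lines gave 1633 genes, 720 at an adjusted p under 0.01, 3221 against PC9 alone, and 1086 to 1685 without 1 library, the lowest without osimertinib replicate 2. The members of all lists together gave 279 calls, and 232 to 273 without 1 library.

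Same-numbered libraries did not deviate together (r = -0.413, -0.142 and 0.104). Deviations offset each other within a group, so these values do not decide whether the numbers pair the samples. With the replicate block 4945 genes were called, 2176 at least 2-fold, 240 list members and 1189 across lines.

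In the test across lines, 11 of the differences named turned in sign against a single line, called in 3 of them. Against HCC827 alone they were -0.062 for SPRY2, -0.18 for IER3, -1.42 for HBEGF and -0.074 for CCNE1. Against HCC2935 alone SLC2A1 had -0.12. Against PC9 alone they were -0.029 for LDHA, -0.27 for KRT8, -0.57 for KRT18 (called), -0.69 for KRT19 (called), -1.35 for KRT16 (called) and -0.26 for VTCN1. The cause was not tested.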

Other observations

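Among the 5 highest differences across lines, PCDH19, KCNK2, SPRR2D and USP44 were near 0 in H1975, at most 0.421 CPM in any of its 6 libraries, and were not tested there alone. The same was true of PACSIN1 and B4GALNT2 among the 5 lowest, at most 0.404 CPM in any library of H1975. CCDC155, the remaining gene of the 5 lowest beside RGCC and RARRES1, fell in H1975 from 5.22 ± 1.85 to 2.19 ± 0.641 CPM. Of 5923 genes called in H1975 and tested in every line, 378 were called in no other line.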
